A study of Mus musculus with 6 samples.

Results

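The conjugation enzymes of liver described here are the glutathione S-transferases (GST), the membrane-bound microsomal transferases named Mgst, the UDP-glucuronosyltransferases (UGT) and the sulfotransferases (SULT). Members were the probe sets present in both deposited tables whose platform annotation names exactly 1 gene, with a symbol starting Gsta, Gstk, Gstm, Gsto, Gstp, Gstt, Gstz, Mgst, Ugt1, Ugt2, Ugt3 or Sult. That rule gave 52 probe sets of 40 genes among 22626 probe sets. They comprised 25 GST probe sets of 18 genes, 5 Mgst probe sets of 3 genes, 10 UGT probe sets of 8 genes and 12 SULT probe sets of 11 genes. No Ugt1 probe set met the rule. The 40 symbols are also the current RefSeq symbols.

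Liver RNA of C57BL/6J mice, a strain widely used as a model of diet-induced obesity, was hybridised to Affymetrix arrays after 2, 4 or 10 weeks on a control or a high-fat diet. Each diet had 1 array at each week, 6 in total, and no genotype or drug distinguished the groups. The sources used here do not say whether an array held the RNA of 1 mouse or of a pool, and do not give sex. The arrays of week 4 were of a larger design and were deposited in a separate table. Diets are therefore set against each other inside a week, and weeks against each other only for weeks 2 and 10.

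These enzymes carry out the conjugation step of detoxification, in which a polar group is joined to a drug, hormone, bile pigment or reactive lipid so that it can be exported in bile or urine. GSTs add glutathione, a tripeptide thiol, to electrophiles such as the aldehydes of lipid peroxidation. UGTs sit in the endoplasmic reticulum and transfer glucuronic acid from UDP-glucuronate, and SULTs in the cytosol transfer sulfate from the donor PAPS. In rodent liver many of these genes are controlled by the antioxidant factor Nfe2l2 and by the xenobiotic receptors Nr1i3, Nr1i2 and Ahr, and several differ between the sexes.

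The RefSeq promoter table (build GRCm38.p6) held entries for 35 of the 40 member genes. Across the 250 bases upstream of each start, 2 motifs were searched on both strands. TGACNNNGC is the core of the antioxidant response element that Nfe2l2 binds with a small Maf protein. TGACTCA is the AP-1 element, which can overlap the first motif. The first occurred in 10.2% of all 32851 windows and in the windows of 4 of the 35 member genes, Gsta3, Gstm5, Gstm7 and Mgst1. The second occurred in 4.46% of all windows and in those of 6 member genes, Gstm5, Gstp1, Mgst2, Sult1c1, Sult2b1 and Ugt2b37. A match describes letters only and is not evidence of binding.

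The upstream sequences of 5 genes the results below return to are shown 5′ to 3′ on each gene's own strand, chosen after their values were seen and stopped where the annotated gene begins. They lie at chr1:21240335-21240564 on the plus strand (Gsta3), chr19:4037913-4038162 on the minus strand (Gstp1), chr3:107895604-107895853 on the plus strand (Gstm5), chr9:78347193-78347395 on the minus strand (Gsta2) and chr3:107969175-107969424 on the minus strand (Gstm3). Capitals mark the matches to the 2 motifs. The Gstp1 match is the AP-1 element read on the opposite strand, Gstm5 holds both motifs, and the windows of Gsta2 and Gstm3 hold neither set of letters.
Gsta3: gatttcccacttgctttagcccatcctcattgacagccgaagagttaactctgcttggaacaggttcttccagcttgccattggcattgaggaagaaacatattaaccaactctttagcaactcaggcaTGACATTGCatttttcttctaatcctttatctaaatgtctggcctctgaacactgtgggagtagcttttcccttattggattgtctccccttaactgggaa
Gstp1: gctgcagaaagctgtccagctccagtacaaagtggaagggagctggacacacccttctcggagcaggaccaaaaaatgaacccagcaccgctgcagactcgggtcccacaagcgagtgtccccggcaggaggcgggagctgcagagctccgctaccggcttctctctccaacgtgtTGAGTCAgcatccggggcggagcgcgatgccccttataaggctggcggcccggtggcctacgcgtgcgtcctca
Gstm5: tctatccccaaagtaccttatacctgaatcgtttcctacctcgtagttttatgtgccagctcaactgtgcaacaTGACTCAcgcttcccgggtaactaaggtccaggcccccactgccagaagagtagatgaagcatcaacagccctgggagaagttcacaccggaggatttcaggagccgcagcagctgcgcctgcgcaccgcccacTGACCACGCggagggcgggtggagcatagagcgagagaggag
Gsta2: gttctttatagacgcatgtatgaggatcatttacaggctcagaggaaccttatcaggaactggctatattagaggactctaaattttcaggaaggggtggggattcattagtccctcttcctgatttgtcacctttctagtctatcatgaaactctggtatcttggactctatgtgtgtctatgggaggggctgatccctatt
Gstm3: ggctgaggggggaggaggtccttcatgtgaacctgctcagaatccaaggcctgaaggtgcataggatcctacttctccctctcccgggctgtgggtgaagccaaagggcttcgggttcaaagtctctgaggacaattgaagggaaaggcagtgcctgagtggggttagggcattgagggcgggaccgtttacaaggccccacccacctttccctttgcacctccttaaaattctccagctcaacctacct

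The upstream windows of 3 Ugt2b genes on chromosome 5 shared long runs. The longest run was 82 bases for Ugt2b37 and Ugt2b38, 68 bases for Ugt2b5 and Ugt2b37, and 62 bases for Ugt2b5 and Ugt2b38, against at most 14 bases for any other pair of member genes. The windows of Ugt2b5 (chr5:87140341-87140590, minus strand) and Ugt2b37 (chr5:87254789-87255038, minus strand) are printed because both genes read lower on the high-fat diet at all 3 weeks. The sign of Ugt2b37 was largely set by the filter described below. A link between the shared run and the diet differences was not tested. Capitals mark their shared run, which covers positions -68 to -1 in Ugt2b5 and -85 to -18 in Ugt2b37.
Ugt2b5: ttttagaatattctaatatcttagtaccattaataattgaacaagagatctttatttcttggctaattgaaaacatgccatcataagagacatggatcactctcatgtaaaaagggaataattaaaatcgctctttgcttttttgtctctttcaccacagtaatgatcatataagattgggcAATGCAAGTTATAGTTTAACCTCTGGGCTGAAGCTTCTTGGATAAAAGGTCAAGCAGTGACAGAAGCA
Ugt2b37: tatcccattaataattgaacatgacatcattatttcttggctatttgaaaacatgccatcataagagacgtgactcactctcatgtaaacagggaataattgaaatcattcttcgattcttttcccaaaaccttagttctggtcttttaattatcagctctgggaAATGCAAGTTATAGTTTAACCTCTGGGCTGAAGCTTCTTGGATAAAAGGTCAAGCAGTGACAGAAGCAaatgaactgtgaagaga

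All values below start from the linear signal intensity that the authors deposited for each probe set. Each array was centred on its median on the log2 scale, and a floor was set at a signal of 155.3. Signals printed here are after centring, with control before high-fat in each pair, and a difference is log2 of the high-fat signal over the control signal with values below the floor raised to it. Before centring, the trimmed mean signal was 800.3 on the control array of week 2 and 500.0 to 500.2 on the other arrays. Between 50.4% and 65.8% of the shared probe sets were above the floor. The 3'/5' ratio of pyruvate carboxylase, a sign of RNA quality, was 9.64 on high-fat against 3.82 on control at week 2, 7.78 against 4.26 at week 4 and 2.39 against 4.01 at week 10. High-fat thus had the higher ratio at weeks 2 and 4, where the median difference of the members was below 0, and lower at week 10, where that median was above 0, and its part in the results was not tested. The spiked-in cre control was highest on the week 10 control array, with a mean signal of 43339 against 9975 to 26547 on the other arrays, and whether this bears on week 10 was not tested.

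Testing required a signal over the floor on 3 or more of the 6 arrays, which 14533 probe sets and 44 of the 52 members (34 genes) had. Of those 44, 40 were above the floor on all 6 arrays. The remaining 8 members were below it on most arrays: Mgst2, Sult1c1, Sult1e1, Sult2b1, Sult4a1, Ugt2b38 and the second probe sets of Mgst1 and Mgst3. All 25 GST probe sets were tested, against 8 of 12 SULT probe sets. The tissue label held, since the 7 measured hepatocyte markers, among them the plasma proteins Alb, Apoa1 and Ttr, were above the floor on all 6 arrays, while of 5 measured bile duct markers Krt7, Epcam and Cldn7 were below it on all 6 and Krt19 and Sox9 above it on 2 arrays each.

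Across the 3 weeks the conjugation enzymes were mostly lower on the high-fat diet early and mixed late. The median difference of the 44 tested members was -0.28 at week 2, -0.33 at week 4 and 0.12 at week 10, against -0.04, 0.00 and 0.01 for all tested probe sets. At week 2, 32 members were lower and 11 higher, at week 4 34 were lower and 9 higher, and at week 10 19 were lower and 25 higher. Week 4 leaned on the scaling: with quantile normalization 24 members were lower and 20 higher, and the median was -0.04. Without centring, 43 of the 44 were lower at week 2, when the median of all probe sets was -0.67.

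By size, 14 members (31.8%) were at least 1.5-fold lower on high-fat at week 2, against 10.2% of all tested probe sets, and 3 (6.82%) at least 1.5-fold higher, against 7.38%. At week 4 the counts were 8 lower (18.2%, against 7.27%) and 1 higher (2.27%, against 4.46%). At week 10 they were 6 lower (13.6%, against 13.6%) and 7 higher (15.9%, against 14.0%), so the week 10 counts stood near the background. The count of 8 at week 4 was 3 with quantile normalization and 4 after a loess correction for brightness. No share of all probe sets was read beside these 2 counts, so an excess at week 4 is shown only as centred.

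Over the 3 weeks, limma, with week as a blocking factor and p-values adjusted by Benjamini-Hochberg over all 14533 probe sets, called 0 of the 44 members at an adjusted p under 0.05, where 0.0138% of all probe sets were called. The smallest adjusted p of a member was 0.993. At an unadjusted p under 0.05, 6 members were lower (13.6%, against 2.33% of all) and 0 higher (against 1.7%). These 6 were the probe set of Gsta2, both of Gsta3, and those of Gstp1, Sult2a2 and Ugt2b37. Ugt2b37 passed the filter with 3 control arrays and 1 high-fat array above the floor, so it had to differ. The count depended on the settings, with 1 lower after quantile normalization, 2 lower after loess and 1 lower with no week block. It was 4 lower and 2 higher without week 2, 2 lower and 1 higher without week 4, and 11 lower and 0 higher without week 10. The share of all probe sets at that p was not read under these settings. The 2.33% and 1.7% belong to the first fit and are no background for them. The error of this test starts from how far the diet difference varies from week to week, in which biology and technique are mixed. For each probe set, limma draws that spread towards a value shared by all probe sets. The standard errors printed below are therefore not the week-to-week spread of 1 probe set alone.

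Members lower at all 3 weeks numbered 12 (27.3%, against 11.7% of all tested probe sets) and members higher at all 3 weeks 0 (against 8.24%). The 12 were Gsta2, both probe sets of Gsta3, Gstp1, Mgst1, Ugt2a3, Ugt2b1, Ugt2b5, Ugt2b37, 1 of 2 probe sets of Ugt2b34, Sult1a1 and 1 of 2 of Sult1d1. The sign of Ugt2b37 was largely set by the filter. Among the 40 members above the floor on all 6 arrays, 11 (27.5%) were lower at all 3 weeks. Probe sets at the floor on both arrays of a week differ by exactly 0 and count in neither direction. At week 4, 6661 of the 14533 tested probe sets were lower and 5081 higher. This lowers the 11.7% and 8.24%, and no share was read for all probe sets above the floor on all 6 arrays. The count of 12 was 5 with quantile normalization and 7 after the loess correction. The share of all tested probe sets was not read under these 2 scalings, so no excess over it is shown there.

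**Figure D1:**
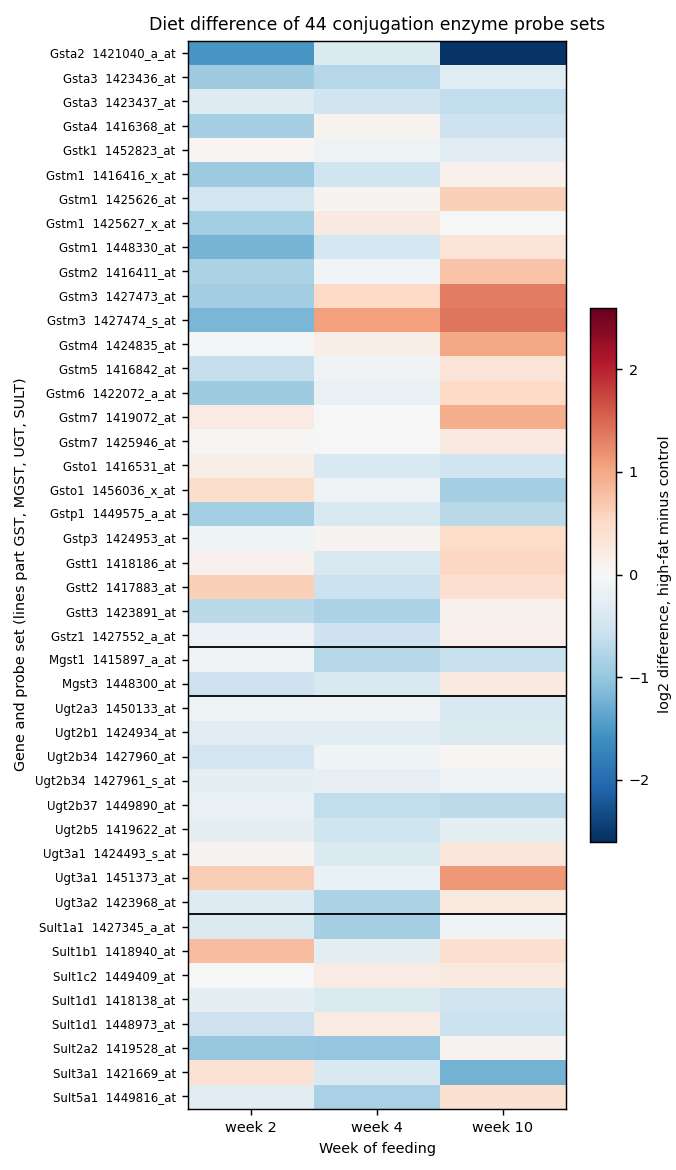
Colour map of the log2 difference, high-fat minus control, of the 44 tested conjugation enzyme probe sets (rows, with family borders as lines) at weeks 2, 4 and 10 (columns), 1 array per diet and week. Gsta2 is lower in each column, down to -2.54 at week 10, and the Gstm rows turn from mostly lower at week 2 to mostly higher at week 10.

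The alpha class GSTs, which reduce lipid hydroperoxides and conjugate lipid aldehydes, were mostly lower on the high-fat diet. All 4 Gsta probe sets were lower at weeks 2 and 10, with a median difference of -0.90 at week 2, -0.44 at week 4 and -0.60 at week 10. The median stayed below 0 at each week without centring, with quantile normalization and after the loess correction, where it was between -1.57 and -0.25.

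Gsta2 (chr9:78331018-78347192), a classical inducible alpha GST, had a signal of 1846 on control against 650 on high-fat at week 2, 1847 against 1439 at week 4 and 4708 against 807 at week 10. Both control signals of weeks 2 and 10 were above both high-fat signals of those weeks. The differences were 2.84-fold, 1.28-fold and 5.83-fold lower on high-fat, and so uneven between weeks. Their mean on the log2 scale was -1.47 (standard error 0.358 and adjusted p = 0.993, both by limma). From week 2 to week 10 the log2 level was 1.35 higher on control and 0.31 higher on high-fat. In the values as deposited, without centring, Gsta2 was the only member called, at a mean of -1.66 and a limma adjusted p of 0.00743, where the control array of week 2 had a trimmed mean above the other arrays.

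Gsta3 (chr1:21240565-21265575), the alpha GST known for detoxifying aflatoxin epoxide in mice, had 2 probe sets. The first read 10789 on control against 5670 on high-fat at week 2, 24295 against 14451 at week 4 and 15619 against 12608 at week 10. The second read 2310 against 1842, then 7083 against 4949, then 5050 against 3227. Both were lower on high-fat in every week, by 1.24-fold to 1.90-fold and by 1.25-fold to 1.57-fold, with mean differences of -0.66 (standard error 0.227) and -0.50 (standard error 0.215), and a limma adjusted p of 0.993 for each. The week 4 difference of the first, -0.75, was -0.22 both with quantile normalization and after the loess correction. Gsta4 (chr9:78191966-78209349), which favours the lipid aldehyde 4-hydroxynonenal, read 1085 against 595 at week 2, 2529 against 2705 at week 4 and 1606 against 1102 at week 10. It was 1.82-fold and 1.46-fold lower at weeks 2 and 10 and 1.07-fold higher at week 4.

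Gstp1 (chr19:4035411-4037912), the pi class enzyme that is abundant in male mouse liver, had a signal of 18987 on control against 10351 on high-fat at week 2, 21626 against 16347 at week 4 and 15962 against 9725 at week 10. The high-fat arrays of weeks 2 and 10 were both below the control arrays of those weeks. As centred, it was lower on high-fat within each week, by 1.83-fold, 1.32-fold and 1.64-fold (mean -0.66, standard error 0.22, limma adjusted p = 0.993). With quantile normalization its mean was -0.37, with -0.81 at week 2 and -0.54 at week 10. After the loess correction these were -0.42, -0.83 and -0.57. Its neighbour Gstp3, named after its values were seen, differed by -0.12, 0.08 and 0.47.

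**Figure D2:**
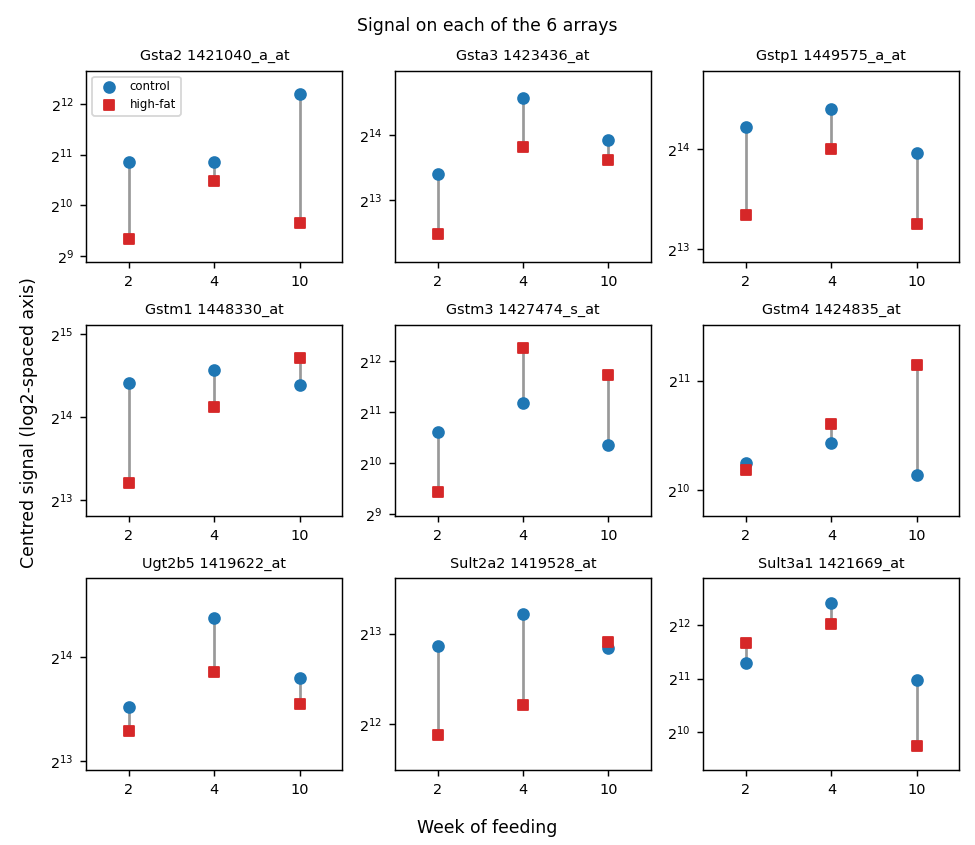
Centred signal (log2-spaced axis) of 9 conjugation enzyme probe sets on each of the 6 arrays, with control as circles and high-fat as squares joined within each week of feeding. For Gsta2 the circle lies above the square in each week, while for Gstm3 the square lies below the circle at week 2 (685 against 1556) and above it at week 10 (3416 against 1308).

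The mu class GSTs, cytosolic enzymes that conjugate aryl halides and epoxides, changed side between weeks. Their 7 genes lie side by side on chromosome 3 in the order Gstm5, Gstm7, Gstm6, Gstm3, Gstm2, Gstm1 and Gstm4, between chr3:107895854 and 108045179, and had 12 tested probe sets. At week 2, 10 of the 12 were lower on high-fat, 8 of them (66.7%, against 10.2% of all tested probe sets) at least 1.5-fold, with a median difference of -0.86. At week 4 the median was 0.00. At week 10, 11 of the 12 were higher, 6 (50.0%, against 14.0% of all) by 1.5-fold or more, and the median was 0.56. Under the other scalings the median was between -1.38 and -0.83 at week 2 and between 0.58 and 0.62 at week 10. The change of side was not tested, since each week has 1 array per diet.

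Gstm1 (chr3:108012250-108017973), a major hepatic mu GST, had 4 probe sets. One made for a single transcript read 21866 on control against 9473 on high-fat at week 2, 24396 against 17817 at week 4 and 21416 against 26981 at week 10. In that probe set the control arrays of weeks 2 and 10, which share a table, lay close together. The high-fat array of week 2 was below both and that of week 10 above both. The difference was 2.31-fold lower, 1.37-fold lower and 1.26-fold higher. The brightest of the 4, whose probes can match other transcripts, differed by -0.95, -0.51 and 0.12, and the 4 did not share a sign at weeks 4 and 10. A further one read 3376 against 1833 at week 2 and 3113 against 3080 at week 10. Its high-fat signal of week 10 was thus below both control signals.

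Gstm2 (chr3:107981702-107986420) read 1544 against 866 at week 2, 1592 against 1521 at week 4 and 1387 against 2328 at week 10. It was 1.78-fold lower at week 2 and 1.68-fold higher at week 10, again over control arrays of weeks 2 and 10 that were close to each other.

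Gstm3 (chr3:107963696-107969174) had the largest week 10 difference of the cluster. Its brighter probe set read 1556 on control against 685 on high-fat at week 2, 2333 against 4904 at week 4 and 1308 against 3416 at week 10. The difference was 2.27-fold lower at week 2, 2.10-fold higher at week 4 and 2.61-fold higher at week 10. The other probe set of the gene differed by -0.91, where its high-fat value was at the floor and the size is a bound, 0.52 and 1.33, with the same signs. The brighter one can match more than 1 transcript, and none of the 7 genes is free of close relatives, so signal of neighbours may be shared.

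Gstm4 (chr3:108030571-108045179) read 1216 against 1166 at week 2, 1384 against 1561 at week 4 and 1127 against 2256 at week 10, and was thus 2.00-fold higher at week 10 and within 1.13-fold earlier. Gstm5, Gstm6 and Gstm7, named after their values were seen, followed the cluster at week 10, with differences of 0.34, 0.51 and 0.95. At week 2 Gstm5 and Gstm6 differed by -0.59 and -0.93, and Gstm7 by 0.22. The Gstm7 values are of its brighter probe set. Its other probe set, above the floor on 4 arrays, differed by 0.04 at week 2 and by only 0.24 at week 10. Among the 8 Gstm probe sets made for a single transcript, 6 were lower at week 2 and 8 higher at week 10, with medians of -0.53 and 0.68.

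**Figure D3:**
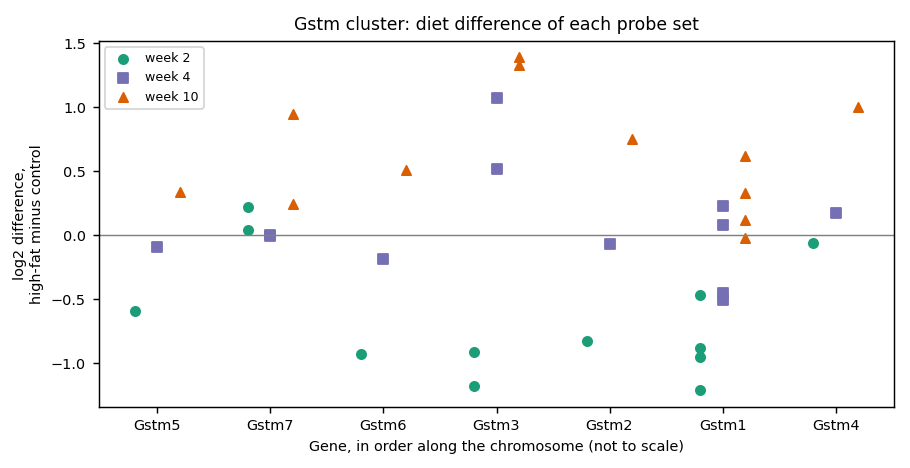
Log2 difference, high-fat minus control, of each Gstm probe set at weeks 2, 4 and 10, with the genes in their order along the chromosome (not to scale). Most week 2 points lie below 0, down to -1.21 in Gstm1, and 11 of the 12 week 10 points lie above it, up to 1.39 in Gstm3.

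The level between weeks could be read within each diet, since weeks 2 and 10 share a table. From week 2 to week 10 the median log2 change of the 12 Gstm probe sets was -0.09 on control and 1.04 on high-fat, with at least 1.5-fold higher levels in 1 and in 10 of them. The brighter Gstm3 probe set changed by -0.25 on control and 2.32 on high-fat. Over the 44 members the median change was 0.12 on control and 0.54 on high-fat, against 0.01 and 0.08 for all tested probe sets. At least 1.5-fold higher levels at week 10 were found in 8 members (18.2%, against 12.2% of all) on control and in 22 (50.0%, against 20.3%) on high-fat. The high-fat array of week 2 is shared by this change and by the week 2 diet difference, so they are not separate evidence.

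**Figure D4:**
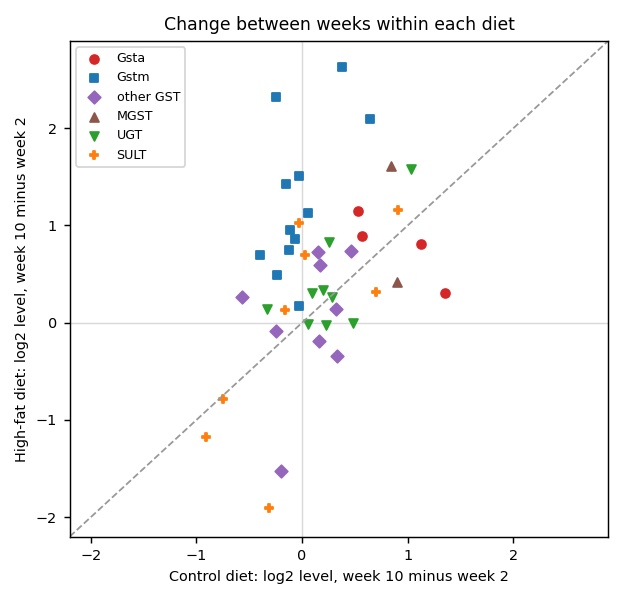
Log2 change of the 44 conjugation enzyme probe sets from week 2 to week 10 on control (horizontal axis) and on high-fat (vertical axis), coloured by family, with a dashed line of equal change. The Gstm points lie near 0 on the horizontal axis and mostly high on the vertical one, and Gsta2 lies at 1.35 on control and 0.31 on high-fat.

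The other cytosolic GSTs were less uniform. For the 9 probe sets outside the alpha and mu classes the median difference was 0.05 at week 2, -0.40 at week 4 and 0.12 at week 10. Gstt3 (chr10:75774117-75781422), of the theta class that acts on small halogenated compounds, read 2604 against 1588 at week 2, 2807 against 1582 at week 4 and 1751 against 1901 at week 10. It was 1.64-fold and 1.77-fold lower at weeks 2 and 4 and 1.09-fold higher at week 10. Its neighbours Gstt1 and Gstt2 differed by 0.11 and 0.62 at week 2, by -0.42 and -0.56 at week 4, and by 0.53 and 0.44 at week 10.

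Gsto1 (chr19:47854973-47864790), which reduces dehydroascorbate and methylated arsenic, went from higher to lower: its brighter probe set at week 2 read 5310 against 7292, then 4324 against 4068 at week 4 and 4625 against 2529 at week 10. That is 1.37-fold higher, 1.06-fold lower and 1.83-fold lower, and the second probe set differed by 0.16, -0.40 and -0.51. Gstz1, the maleylacetoacetate isomerase of tyrosine breakdown, differed by -0.16, -0.53 and 0.13. Gstk1, the mitochondrial and peroxisomal kappa enzyme, stayed within 1.23-fold in each week.

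Of the membrane-bound transferases, Mgst1 (chr6:138140527-138156755), an abundant protein of the endoplasmic reticulum and outer mitochondrial membrane, read 27275 on control against 25508 on high-fat at week 2, 40344 against 24080 at week 4 and 50899 against 34089 at week 10. The high-fat array was the lower one in each week, by 1.07-fold, 1.68-fold and 1.49-fold. The week 4 difference depended on scaling, being -0.74 as centred, -0.07 after the loess correction and 0.1 with quantile normalization. Mgst3 (chr1:167371966-167393841) differed by -0.54, -0.42 and 0.24. Mgst2, which can make leukotriene C4, was below the floor on all 6 arrays.

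Among the UGTs the Ugt2 genes, which glucuronidate steroids, bile acids and many drugs, differed little but mostly in one direction. The 6 tested Ugt2 probe sets had median differences of -0.23, -0.26 and -0.31, and 5 of them were lower at all 3 weeks. One of the 5 is Ugt2b37, which passed the filter mainly through its control arrays. For the 5 probe sets above the floor on all 6 arrays the medians were -0.23, -0.22 and -0.25, and 4 were lower at all 3 weeks. At week 2, 0 of the 9 UGT probe sets and 13 of the 25 GST probe sets (52.0%) were at least 1.5-fold lower, against 10.2% of all tested probe sets, so the UGT count was near the background. The Ugt2 median at week 4 turned to 0.06 with quantile normalization and 0.07 after the loess correction, while at weeks 2 and 10 it stayed below 0 under each scaling.

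Ugt2b1 (chr5:86916639-86926503) read 8022 on control against 6562 on high-fat at week 2, 8992 against 7295 at week 4 and 8389 against 6507 at week 10. Within weeks the high-fat array was the lower one, by 1.22-fold to 1.29-fold (mean -0.32, standard error 0.211, limma adjusted p = 0.993). Ugt2b5 (chr5:87124946-87140340) read 11710 against 10003, then 21276 against 14824, then 14261 against 11974, and was 1.17-fold, 1.44-fold and 1.19-fold lower. Ugt2a3 differed by -0.14, -0.14 and -0.39, and the brighter Ugt2b34 probe set by -0.23, -0.22 and -0.09.

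Ugt2b37 (chr5:87240492-87254788) and Ugt2b38 (chr5:87409939-87424203), whose upstream windows share the long runs, were both near the floor. Ugt2b37 read 179 against 98.7 at week 2, 271 against 173 at week 4 and 250 against 23.5 at week 10. It was at least 1.15-fold lower at week 2, 1.57-fold lower at week 4, and at least 1.61-fold lower at week 10. Ugt2b38 read 180 against 136, then 145 against 30.5, then 261 against 94.5, with 2 control arrays and 0 high-fat arrays above the floor, and was not tested.

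The Ugt3 genes, whose enzymes are known to use sugar donors other than UDP-glucuronate, did not follow the Ugt2 genes. Ugt3a2 (chr15:9335551-9370955) read 9175 against 7306 at week 2, 14386 against 8146 at week 4 and 10929 against 13018 at week 10, so it was 1.26-fold lower, 1.77-fold lower and 1.19-fold higher. Its week 4 difference of -0.82 was -0.46 with quantile normalization and -0.44 after the loess correction. One probe set of Ugt3a1 (chr15:9279822-9315038) read 931 against 1453, then 1595 against 1414, then 739 against 1604, and was 1.56-fold higher at week 2 and 2.17-fold higher at week 10. The other one, which can match more than 1 transcript, differed by only 0.07, -0.37 and 0.29.

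The SULT family held both lower and higher members. The median difference of its 8 tested probe sets was -0.26 at week 2, -0.39 at week 4 and -0.01 at week 10. Sult2a2 (chr7:13733506-13779637), of the subfamily that sulfates steroids and bile acids, read 7463 on control against 3775 on high-fat at week 2, 9548 against 4746 at week 4 and 7330 against 7690 at week 10. It was 1.98-fold and 2.01-fold lower at weeks 2 and 4 and 1.05-fold higher at week 10 (mean -0.64, standard error 0.267, limma adjusted p = 0.993).

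Sult1a1 (chr7:126672865-126690443), the main phenol sulfotransferase, read 16919 against 13063 at week 2, 22763 against 12558 at week 4 and 15171 against 14252 at week 10. Its largest difference, 1.81-fold lower, was at week 4, and at week 10 it was 1.06-fold lower. The week 4 difference of -0.86 was -0.43 with quantile normalization and -0.35 after the loess correction. Sult5a1 (chr8:123142843-123158914) read 494 against 408, then 478 against 266, then 504 against 662, so it too was lowest relative to control at week 4, by 1.79-fold.

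Sult3a1 (chr10:33851020-33879475), which sulfonates amines, went the other way with time, reading 2506 against 3240 at week 2, 5448 against 4134 at week 4 and 2015 against 860 at week 10. It was 1.29-fold higher, 1.32-fold lower and 2.34-fold lower. Sult1b1 (chr5:87513327-87538195), which sulfates thyroid hormones and small phenols, read 282 against 490, then 645 against 541, then 458 against 614, and was 1.74-fold higher at week 2 and 1.34-fold higher at week 10. Its neighbour on chromosome 5, Sult1d1, which sulfates catecholamines, was lower at weeks 2 and 10 in both probe sets, by 1.19-fold to 1.48-fold. Sult1c2 stayed within 1.19-fold of control.

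Set side by side, the families had median differences at week 2 of -0.59 (GST), -0.32 (2 Mgst probe sets), -0.23 (UGT) and -0.26 (SULT). At week 4 the medians were -0.14, -0.58, -0.30 and -0.39, and at week 10 they were 0.24, -0.17, -0.09 and -0.01. The GST family thus had the lowest median at week 2 and the highest at week 10. For the 13 GST probe sets outside the mu class the medians were -0.16, -0.40 and -0.31. At week 2 the alpha class was as low as the mu class, with medians of -0.90 and -0.86. At week 10 these were -0.60 and 0.56. No test of a difference between families was made. Small medians depended on scaling, as the week 4 median of the GSTs was 0.01 with quantile normalization and that of the UGTs 0.00 after the loess correction.

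**Figure D5:**
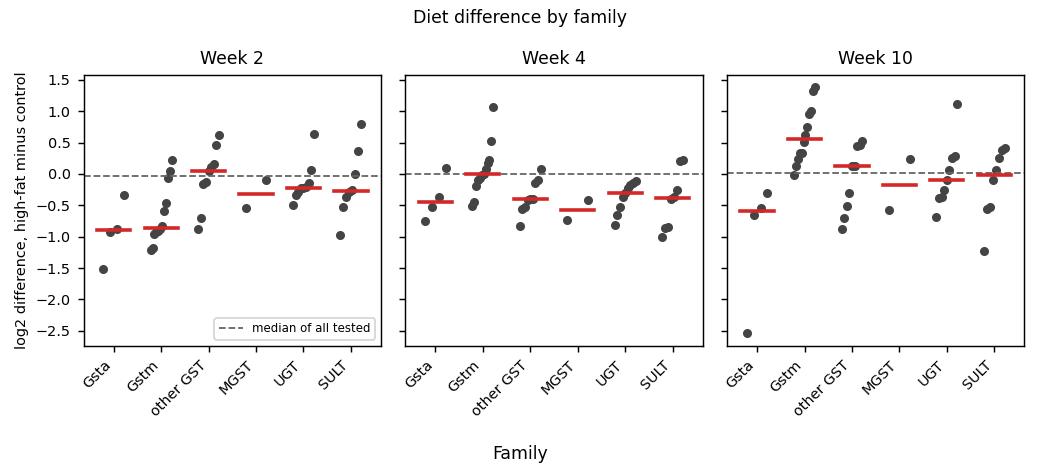
Log2 difference, high-fat minus control, of each tested probe set by family and week (1 panel a week), with the family median as a red bar and the median of all tested probe sets as a dashed line. The Gstm bar goes from -0.86 at week 2 to 0.56 at week 10 and the Gsta bar lies below the dashed line in each panel; "other GST" are the 9 probe sets of neither class.

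Most members were bright, with 34 of the 44 among the brightest 25% of tested probe sets. In that bright group the median of all probe sets was 0.00 at week 2, -0.14 at week 4 and -0.04 at week 10, and that of the 34 members -0.31, -0.39 and -0.05. Of the 34, 11 were at least 1.5-fold lower at week 2, where 5.62% of the bright group were, and 6 at week 4, where 11.4% were. At week 10 there were 5, where 13.5% of the bright group were.

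Among other genes of the same pathways, 0 in each list passed limma's adjusted threshold, which 0.0138% of all tested probe sets passed. Of 9 tested genes of glutathione supply, 0 passed an unadjusted p under 0.05 in either direction, and their medians were -0.10, 0.07 and 0.04. Gclc and Gclm, the subunits of the rate-limiting ligase of glutathione synthesis, differed by 0.29, 0.16 and -0.36, and by -0.41, 0.07 and -0.40. Of 4 genes of UDP-glucuronate supply and glucuronide hydrolysis, 1 was lower at that threshold and 0 higher. It was Ugdh, which makes UDP-glucuronate, with differences of -0.60, -0.17 and -0.79. Of 7 genes of PAPS supply and sulfate ester hydrolysis 0 passed, and the PAPS synthases Papss1 and Papss2 differed by 1.23 and -0.46 at week 10. In that week 3 of the 7 were at least 1.5-fold lower and 1 higher, against 13.6% and 14.0% of all tested probe sets.

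Of 6 exporters of conjugates, 0 passed in either direction. Abcc2, which exports conjugates into bile, differed by 0.56, 0.34 and 0.08, and Abcc3, which exports them to blood, by 0.33, -0.54 and -0.78. Of 11 regulators 0 passed, with Nfe2l2 at -0.76, 0.21 and 0.22, Ahr at -0.39, -0.25 and -0.41, and Nr1i3 at 0.40, -0.69 and 0.17. Nfe2l2 was thus lower on high-fat at week 2 and slightly higher later at the RNA level, and its part in the members' differences was not tested. By mean difference the regulators furthest from 0 were Ahr (-0.35) and Arnt (-0.24), with Nfe2l2 at -0.11 and Nr1i3 at -0.04. Of 13 other Nfe2l2 target genes, 1 was lower (the carbonyl reductase Cbr1, at -0.61, -0.67 and -0.75) and 0 higher, with medians of -0.29, 0.07 and -0.25. Of 10 other targets of Nr1i3 and Nr1i2, 1 was lower (Cyp2b10, the cytochrome P450 that is the classical Nr1i3 target, at -1.72, -0.13 and -0.79) and 0 higher, with medians of -0.18, -0.47 and -0.32. By sign, 4 of these 10 were lower at all 3 weeks (against 11.7% of all tested probe sets) and 0 higher (against 8.24%). At week 4, 4 were at least 1.5-fold lower (against 7.27%) and 1 higher (against 4.46%).

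Markers of liver cell types moved with the members in part. The 7 hepatocyte markers had median differences of -0.18, -0.84 and -0.48, and their summed signal was 265049 on control against 227388 on high-fat at week 2, 302911 against 166050 at week 4 and 445226 against 337364 at week 10. In bulk tissue, fewer cells of a type and less RNA per cell cannot be told apart. After the loess correction those medians were -0.08, -0.16 and -0.15. As centred, 6 of the 7 hepatocyte markers were lower at all 3 weeks (against 11.7% of all tested probe sets) and 0 higher (against 8.24%). The 9 pericentral markers, of the zone around the central vein where many conjugation enzymes are high, had medians of 0.45, -0.39 and -0.57, and the 5 periportal markers -0.35, -0.70 and -0.21.

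The 10 macrophage markers had medians of -0.18, -0.01 and 0.79. Their summed signal was 17214 against 14511 at week 2, 24094 against 24394 at week 4 and 10076 against 18902 at week 10. At week 10, 8 of the 10 were at least 1.5-fold higher on high-fat, against 14.0% of all tested probe sets. The 5 endothelial markers had medians of -0.31, -0.24 and 0.44, the 6 stellate and fibroblast markers -0.01, 0.14 and 0.38, and the 4 lymphocyte markers -0.33, 0.07 and 0.47. The medians of these lists were thus above 0 at week 10, when that of the Gstm members also was. So was that of the 3 tested pancreatic acinar markers, with medians of -0.23, 0.00 and 1.18, of which Prss2, a trypsinogen, differed by -1.43, -0.55 and 2.13, and Cela2a and Cpa1 were below the floor on all 6 arrays. The 1 tested intestine marker, Fabp2, a fatty acid binding protein, differed by 0.76, 1.27 and 1.31, with Lct and Vil1 below the floor on all 6, and the 2 tested kidney markers had medians of -0.43, 0.00 and 0.35. The 5 tested genes known to be higher in male liver had medians of 0.21, 0.23 and -0.09, and the 6 known to be higher in female liver 0.03, 0.02 and 0.21. Single genes varied more. Of the 6, 2 were at least 1.5-fold lower at week 4 and 1 higher (Cyp3a44, at 1.72), against 7.27% and 4.46% of all tested probe sets. In the male list, Slco1a1 read 1095 against 1266 at week 2 and 165 against 70.5 at week 10. Hsd3b5 of that list, not tested, read 29.8 against 551 at week 4. The part of these markers in the members' differences was not tested.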

How the data were processed

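Linear signal intensity per probe set was deposited by the authors in 2 tables scaled separately; how probes were summarized is not given in the sources used. From those values, 22690 probe sets shared by both tables were taken and 64 controls left out. They were put on the log2 scale, each array centred on its median over those exceeding the floor on all arrays, and floored at the pooled 40th percentile. Gene symbols come from the platform annotation (20380 probe sets with 1 symbol, 691 with several, 1555 with none). The diet term was fitted with limma 3.58.1 (R 4.3.3; lmFit, then eBayes) and week as a blocking factor. On simulated data with independent noise, the fit was checked for returning the size of added differences. That check does not bear on the p-values of this design. Since nothing says which arrays hold separate mice, p-values measure only the spread between these arrays, whose number limits the precision. Single weeks have 1 array per diet and no test.

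Members and lists were chosen with earlier results of these data known. Named members are the 4 per family with the largest mean difference, those at least 2-fold different at a week on arrays above the floor, those with an unadjusted p under 0.05 and a fixed list. Of the fixed list, Gsta1, Ugt1a1, Ugt2b35, Ugt2b36, Sult2a1 and Sult2a8 have no member probe set. Tried instead were deposited values uncentred, quantile normalization, loess on brightness, no filter, floors at the 20th and 60th percentile, the brightest probe set per gene, no shared probe sets, no week block, eBayes with trend and robust, and leaving out each week.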

Additional observations from a re-analysis of the deposited data

Results flagged for a closer look

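Among members above the floor on both arrays of the weeks compared, 2 probe sets had a diet difference of at least 1.5-fold in opposite directions at different weeks. Gstm2 differed by -0.83 at week 2 and by 0.75 at week 10. Gstm3, in its brighter probe set, differed by -1.18 at week 2, 1.07 at week 4 and 1.39 at week 10. The difference between the weeks was not tested, since each week has 1 array per diet. The second Gstm3 probe set also changed side, from -0.91 at week 2, a bound since its high-fat value was below the floor, to 1.33 at week 10.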

How the results depend on the processing

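Of the single-member differences, 3 changed direction, and the number of members called by limma stayed at 0 in all settings other than the values as deposited. As deposited, with no centring, limma called 1 member (Gsta2), 34 members were at least 1.5-fold lower and 0 higher at week 2, and 2 were higher at week 4. The week 2 medians were then -0.94 over all members, -1.2 for GST, -0.99 for Mgst, -0.85 for UGT and -0.93 for SULT, and Gstt2 and 1 Ugt3a1 probe set turned to -0.05 and -0.03, the control array of week 2 being scaled higher. With quantile normalization 3 members were lower at week 4 and 5 at all weeks, the week 4 medians were -0.04 over all members, -0.13 for Mgst and -0.04 for UGT, and Mgst1 turned to 0.1 at week 4. After loess those counts were 4 and 7, the week 4 medians -0.04, -0.23 and 0.0, and the UGT median of week 10 0.03. The floor at the 20th percentile put the Mgst median of week 10 at 0.05. Without the filter, which adds probe sets at the floor, Mgst medians were -0.1 and 0.0 and SULT medians -0.01 and -0.13 at weeks 2 and 4. With the brightest probe set per gene, 4 members were higher at week 10 and the UGT median there was -0.25. Without shared probe sets, fewer members being tested, 8 were lower at week 2, 0 higher at week 4, 3 lower at week 10 and 7 lower at all weeks; the Mgst medians were -0.54 at week 2 and 0.24 at week 10, and the UGT median of week 10 was -0.25. Chosen after seeing the data, the members lower at both remaining weeks numbered 24 without week 10, 16 without week 2 and 15 without week 4 (54.5%, 36.4% and 34.1%, against 26.2%, 21.4% and 24.2% of all). Without single weeks the members' smallest limma adjusted p was between 0.114 and 0.277, and the mean difference of Gsta2 was between -2.03 and -0.93. Shares of all probe sets were read only for the counts at both remaining weeks, so the other counts here have no background beside them. Where no cause is named, the cause was not tested. The week block already pairs the 2 arrays of each week, and without it limma called 0 members.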

Other observations

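Family probe sets outside the rule gave further values. A probe set shared by Gsta2, Gsta1 and the predicted gene Gm3776 had a signal of 2017 on control against 477 on high-fat at week 2, 1953 against 1895 at week 4 and 2632 against 874 at week 10, with differences of -2.08, -0.04 and -1.59. Like the Gsta2 probe set, it was far lower at weeks 2 and 10 and near control at week 4, and the probes may read the same transcripts. The 3 probe sets shared by the Ugt1a genes, which include the bilirubin enzyme Ugt1a1, were lower on high-fat at each week as centred. Their differences were not read under the other scalings. The brightest of them differed by -0.17, -0.81 and -0.53, and the other two by -0.17, -0.66 and -0.31, and by -0.01, -0.41 and -0.33.

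On the larger arrays of week 4 alone, Ugt2b35 read 4730 on control and 6744 on high-fat, Ugt2b36 18062 and 12285, and the bile acid sulfotransferase Sult2a8 12595 and 9142. Their differences were 0.51, -0.56 and -0.46, with no replicate.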
